A study of Mus musculus with 12 samples.

Results

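Dmd, which encodes dystrophin, is the longest gene annotated on the mouse X chromosome, and 14 of the 1217 X-linked regions with allelic values lay in it or within 5 kb of it. They were 12 of 1006 OCT4 peaks and 2 of 211 YY1 peaks, taken by position alone from each table. The gene itself was chosen by its allelic ratios at day 0 and day 6, which were known beforehand for both factors, so its calls below are a description and lend no support to any statement about the gene. In the RefSeq annotation of GRCm38.p6, the assembly of mm10, Dmd spans 2.39 Mb on the plus strand (chrX:82814664-85205050) and ends 18.3 Mb before Xist.

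Binding of OCT4 and YY1 was mapped by ChIP-seq, which sequences the DNA that an antibody recovers with its protein from crosslinked chromatin, in iXist-ChrX-Cast cells, a female hybrid mESC line of strain Dom/129S x Cast. Doxycycline at 1 µg/ml switches on Xist from a TetOn promoter on the Cast X chromosome, which becomes the inactive X (Xi), while its partner stays active (Xa). There were 4 groups with allelic values, each of 2 replicates: OCT4 at day 0 without doxycycline, OCT4 at day 6 with it, and YY1 at the same times. All 4 groups share the inducible Xist allele and were kept as mESCs rather than differentiated, after removal of feeder fibroblasts by pre-plating, and 4 of the 12 libraries were inputs without allelic values. No source used here says that replicates were separate cultures, so the p-values reflect spread between samples that may be no more than technical. Consensus OCT4 peaks lay in or within 5 kb of every pluripotency gene examined, with 4 at Pou5f1 (which encodes OCT4), 3 at Nanog, 5 at Sox2, 1 at Klf4, 25 at Esrrb and 3 at Zfp42. Of 21631 protein-coding genes, 69.4% had at least 1 such peak in the same window (median 1), so the presence of a peak is common.

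Dystrophin links the actin cytoskeleton of muscle fibres, through dystroglycan and the sarcoglycans, to laminin outside the cell, and its loss causes Duchenne muscular dystrophy. The gene is built of many small exons in very long introns and has several promoters, of which the most downstream makes the short, widely expressed isoform Dp71. OCT4 is a POU-domain factor of pluripotent cells that binds the octamer motif, often beside SOX2, and YY1 is a zinc finger factor that binds a core around ATGG, at many promoters and some enhancers. During X inactivation Xist RNA spreads from its own locus along the chromosome it is made from, genes on it are silenced and many factors leave it.

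The annotation lists 17 Dmd transcripts with 11 distinct start positions. The curated full-length transcript starts at 82948870 and has 79 exons, which number the exons and introns used here, and predicted models begin further upstream, from 82814664. The last start, at 85048295 within intron 62, is that of the curated short Dp71 transcripts. Of the 12 OCT4 peaks, 11 touched no exon of the curated transcript and none lay at an annotated start, the distance to the nearest start running from 4.989 to 551 kb. Both YY1 peaks were intronic too, in introns 50 and 67, 329 and 84.4 kb from the nearest start. The peaks described here are therefore distal to the annotated promoters.

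**Figure D1:**
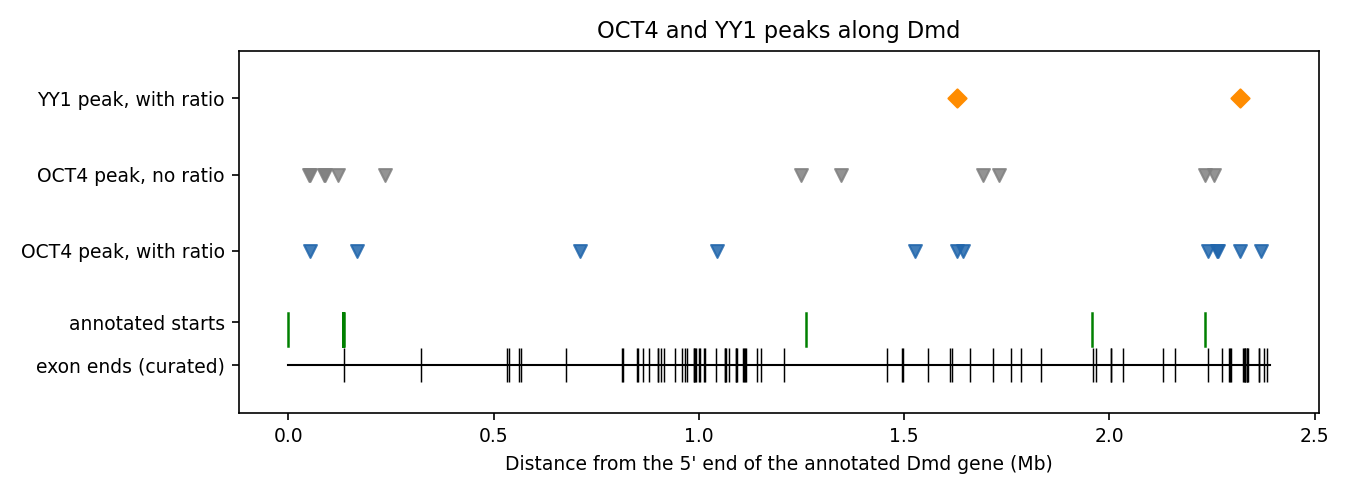
Positions along Dmd of OCT4 consensus peaks with an allelic ratio (blue), OCT4 consensus peaks without one (grey) and YY1 peaks with a ratio (orange), against distance from the 5′ end of the annotated gene in Mb; green lines are annotated starts and black lines the downstream ends of exons of the curated transcript. The 12 OCT4 peaks with a ratio are spread over the gene, with 5 of them beyond the last start.

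Sequence is shown for the 2 places where the factors overlapped and for the OCT4 peaks that held a motif searched for. All of it is the plus strand of the RefSeq genome GRCm38.p6 unless said otherwise, a reference strain sequence that does not show differences between the Dom/129S and Cast alleles. In the YY1 peak of intron 67 (chrX:85132664-85133185), which wholly contains an OCT4 peak of 397 bp, the central 300 bases (chrX:85132775-85133074) held one YY1 core, in capitals, searched as AANATGGC on both strands.

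YY1 intron 67: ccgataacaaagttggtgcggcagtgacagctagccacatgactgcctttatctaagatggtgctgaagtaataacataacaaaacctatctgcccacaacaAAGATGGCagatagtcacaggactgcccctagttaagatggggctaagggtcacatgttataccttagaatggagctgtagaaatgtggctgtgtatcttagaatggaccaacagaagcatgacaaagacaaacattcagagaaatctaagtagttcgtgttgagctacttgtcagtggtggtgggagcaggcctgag

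The YY1 peak of intron 50 (chrX:84443187-84443773) lay wholly inside an OCT4 peak of 2181 bp and held no such core. Its central 300 bases (chrX:84443331-84443630) are shown for comparison, all in lower case. A core stood instead just beyond its downstream border, within the wide OCT4 peak (chrX:84443852-84443881), and another in an OCT4 peak of intron 63 on the minus strand (chrX:85080527-85080556, given 5′ to 3′ on that strand). The core is in capitals.

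YY1 intron 50: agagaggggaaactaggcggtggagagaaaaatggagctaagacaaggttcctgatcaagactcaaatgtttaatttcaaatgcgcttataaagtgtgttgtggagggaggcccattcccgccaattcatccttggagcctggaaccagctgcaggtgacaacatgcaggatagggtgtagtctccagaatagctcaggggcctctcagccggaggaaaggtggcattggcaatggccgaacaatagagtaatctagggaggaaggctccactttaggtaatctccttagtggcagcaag
OCT4 intron 50, YY1 core: atttcacataaAACATGGCtctgtggtgtg
OCT4 intron 63, YY1 core: gtaaggaagttAACATGGCcactgtgaaaa

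The OCT4 peak of intron 76 (chrX:85183977-85184212) is the most downstream one and is given whole. It held 2 octamers, in capitals, searched as ATGCAAAT and ATGCTAAT on both strands.

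OCT4 intron 76: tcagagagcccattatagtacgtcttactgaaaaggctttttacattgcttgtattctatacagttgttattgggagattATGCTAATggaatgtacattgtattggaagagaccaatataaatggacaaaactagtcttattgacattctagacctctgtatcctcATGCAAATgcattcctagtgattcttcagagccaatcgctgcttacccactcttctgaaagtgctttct

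The octamer was found in 1 of the 12 Dmd OCT4 peaks (8.33%), against 20.2% of all 1006 OCT4 peaks. The YY1 core was found in 1 of the 2 YY1 peaks against 76.8% of all 211, and in 3 of the 12 OCT4 peaks (25%) against 10.4% of the 1006. Neither motif overlaps the other in these peaks. These shares are descriptions of letters in windows of unequal length, with Dmd OCT4 peaks from 236 to 2181 bp wide and from 32.9% to 46.6% GC. In the central 200 bases of each peak, the octamer was in 8.33% of the 12 against 12.6% of the 1006. The YY1 core was there in 8.33% of the 12 against 3.68% of the 1006, and in 1 of the 2 YY1 peaks against 56.4% of the 211. OCT4 peaks of introns 30 and 50 also shared one stretch of 27 bases (chrX:83858552-83858578 and chrX:84444109-84444135), the longest shared by any pair of the 12, and 49.6% and 50.9% of these 2 peaks was soft-masked as repeat or low-complexity sequence.

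Shared by introns 30 and 50: taacctgcttgaaaaacaaagttgaga

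The allelic ratio, Xi/(Xi + Xa), is the fraction of a peak's allele-assigned fragments that came from Xi, so 0.5 is equal binding to both chromosomes and 0 is none on Xi. The tables hold no fragment numbers, so the depth behind each ratio is unknown and no counting interval is given. At Dmd, the Xi share of OCT4 was below its day 0 level in both day 6 libraries at 12 of 12 peaks, which was also so at 73% of the 1006 OCT4 peaks. By limma with Benjamini-Hochberg adjustment over the whole table, 8 of the 12 were lower at day 6 (adjusted p from 0.0163 to 0.0479), 4 did not pass (0.0865 to 0.260) and 0 were higher, and 10 had an unadjusted p under 0.05. Over the table, 35% of OCT4 peaks were called lower. Leaving out day 0 replicate 1 or day 0 replicate 2 left 0 of the 12 called by limma, with 9 and 5 at an unadjusted p under 0.05, and then 1 and 0 of all 1006 OCT4 peaks were called. The median change of the 12 was -0.201 without day 6 replicate 1 and -0.279 without day 6 replicate 2, against -0.241 with all libraries. In these bulk samples, loss of binding from Xi in some cells, weaker binding to Xi in all of them and a gain on Xa cannot be told apart.

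The 7 OCT4 peaks ahead of the Dp71 start lay within 1.59 Mb. The one furthest 5′ (chrX:82866110-82866530, 421 bp), in an intron of a predicted transcript ahead of the curated start, had day 0 ratios of 0.615 and 0.633 and day 6 ratios of 0.333 and 0.417. Both day 0 libraries leaned towards Xi and both day 6 libraries towards Xa, and the ratio fell by 0.249 ± 0.0573 (SE of the limma fit, n = 2 libraries a day here and below). The intron 1 peak (chrX:82982483-82982762, 280 bp) started at 0.231 and 0.200 and ended at 0.167 and 0.100. It leaned strongly towards Xa before Xist was induced, with a mean day 0 ratio of 0.215, close to the lower bound of the biallelic filter, and its change of -0.0821 (95% interval -0.214 to 0.0500) did not pass and was -0.0487 without day 6 replicate 2.

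In intron 7, a peak 551 kb from the nearest start (chrX:83524802-83525169, 86.1% soft-masked) started at 0.486 and 0.563 and ended at 0.333 and 0.323. The day 6 libraries lay close together and below both day 0 values, and the ratio fell by 0.196 ± 0.0566. In intron 30 (chrX:83858491-83858760) the day 0 libraries gave 0.391 and 0.633 and the day 6 libraries 0.30 and 0.313. The day 0 libraries differed by 0.242, the widest gap between replicates among the 12, and the change of -0.206 (95% interval -0.401 to -0.0116) did not pass after adjustment. It was -0.327 without day 0 replicate 1 and -0.0851 without day 0 replicate 2.

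In intron 47 (chrX:84340196-84340487) the day 0 libraries gave 0.489 and 0.487 and the day 6 libraries 0.412 and 0.359, a change of -0.103 (95% interval -0.231 to 0.0255) that did not pass. This peak kept 78.9% of its day 0 ratio, the most of any of the 12. The wide intron 50 peak (chrX:84442909-84445089) started at 0.477 and 0.486 and ended at 0.356 and 0.358. Replicates were nearly equal on both days, and its change of -0.125 (95% interval -0.249 to -0.000402) did not pass after adjustment. A narrower peak in the same intron (chrX:84457391-84457716) went from 0.488 and 0.551 to 0.189 and 0.382 and fell by 0.234 ± 0.0751. Its day 6 libraries differed by 0.193, the widest gap on that day, and without day 6 replicate 1, the lower of them, its change was -0.137 (adjusted p = 0.156 by limma).

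The 5 OCT4 peaks beyond the Dp71 start lay within 131 kb. The nearest to it, 4.989 kb away and overlapping exon 63 (chrX:85053284-85054273), started at 0.513 and 0.465 and ended at 0.211 and 0.192. Replicates lay close together on both days, and the ratio fell by 0.287 ± 0.0545. In intron 63, the more upstream of a pair of peaks (chrX:85076907-85078221) went from 0.531 and 0.488 to 0.229 and 0.192 and fell by 0.299 ± 0.0549. The more downstream one (chrX:85079860-85080646), which holds the minus strand YY1 core shown above, went from 0.597 and 0.536 to 0.270 and 0.217 and fell by 0.323 ± 0.0569. All 3 of these peaks kept between 41.2% and 43.0% of their day 0 ratio.

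The OCT4 peak of intron 67 (chrX:85132778-85133174) started at 0.612 and 0.506 and ended at 0.100 and 0.250. By the means of 2 libraries a day, it fell by 0.384 ± 0.0715 and kept 31.3% of its day 0 ratio. This was the largest decrease at Dmd and the 18th largest of the 1006 OCT4 peaks. The rank at Dmd rested on replicates 1, which alone gave a change of -0.512, against -0.256 from replicates 2. In replicates 2 the peaks of intron 30 (-0.321), intron 63 (-0.295 and -0.319) and exon 63 (-0.273) fell by more. The intron 76 peak with the 2 octamers (chrX:85183977-85184212) went from 0.481 and 0.605 to 0.167 and 0.353 and fell by 0.283 ± 0.0790. At both peaks the day 6 replicates differed by more than 0.1, with replicate 1 the lower.

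**Figure D2:**
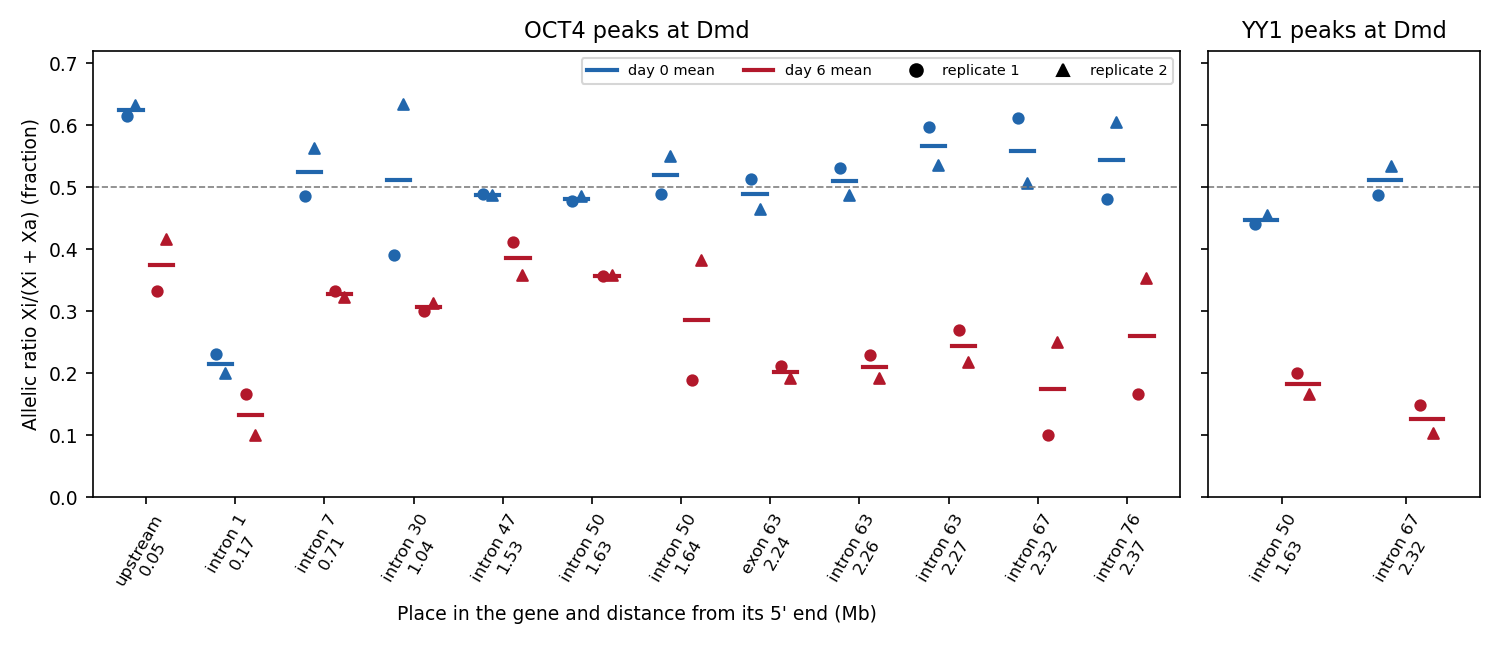
Allelic ratio Xi/(Xi + Xa) of each Dmd peak in each library, in order along the gene, with the distance in Mb from the 5′ end under each name; points are single libraries, horizontal bars are means of 2, blue is day 0 and red day 6. Every red point lies below both blue points of its peak, and the 3 peaks at exon 63 and in intron 63 have day 6 ratios between 0.192 and 0.270.

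Taken along the gene, the 5 peaks beyond the Dp71 start kept 31.3% to 47.8% of their day 0 ratios and changed by -0.384 to -0.283 (median -0.299), and 5 of 5 were called lower. The 7 peaks ahead of it kept 55.0% to 78.9% and changed by -0.249 to -0.0821 (median -0.196), and 3 of 7 were called. Over all 1006 OCT4 peaks 35% were called lower. By the means of 2 libraries a day, the ranges of share kept and of change did not overlap between the parts. From replicates 1 alone the changes stayed just apart, the nearest being -0.299 ahead of the start and -0.302 beyond it. From replicates 2 alone they overlapped. The intron 30 peak, ahead of the start, changed by -0.321, and the peaks beyond it by -0.319 to -0.252. The shares kept overlapped in each replicate alone. The place of the split was chosen after the values were seen, so this is a description without a test. Day 0 ratios ran from 0.465 to 0.612 beyond the start and from 0.200 to 0.633 ahead of it. Ratios at day 6 overlapped, running from 0.100 to 0.353 beyond the start and from 0.100 to 0.417 ahead of it.

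Over the 12 peaks, distance from the 5′ end and change had a Spearman rho of -0.727 and a Pearson r of -0.613. Distance and the mean day 6 ratio had a rho of -0.434, and distance and the mean day 0 ratio one of 0.252. The change and the day 0 ratio had a rho of -0.650, and these 2 measures share the day 0 values. Peak width and GC content had a rho with the change of -0.357 and -0.259. All of these are descriptions across neighbouring peaks of one gene read in the same 4 libraries. The change computed from replicates 1 and that from replicates 2 had a rho of 0.566 over the 12 peaks, so the order of single peaks was only partly the same in the replicates.

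**Figure D3:**
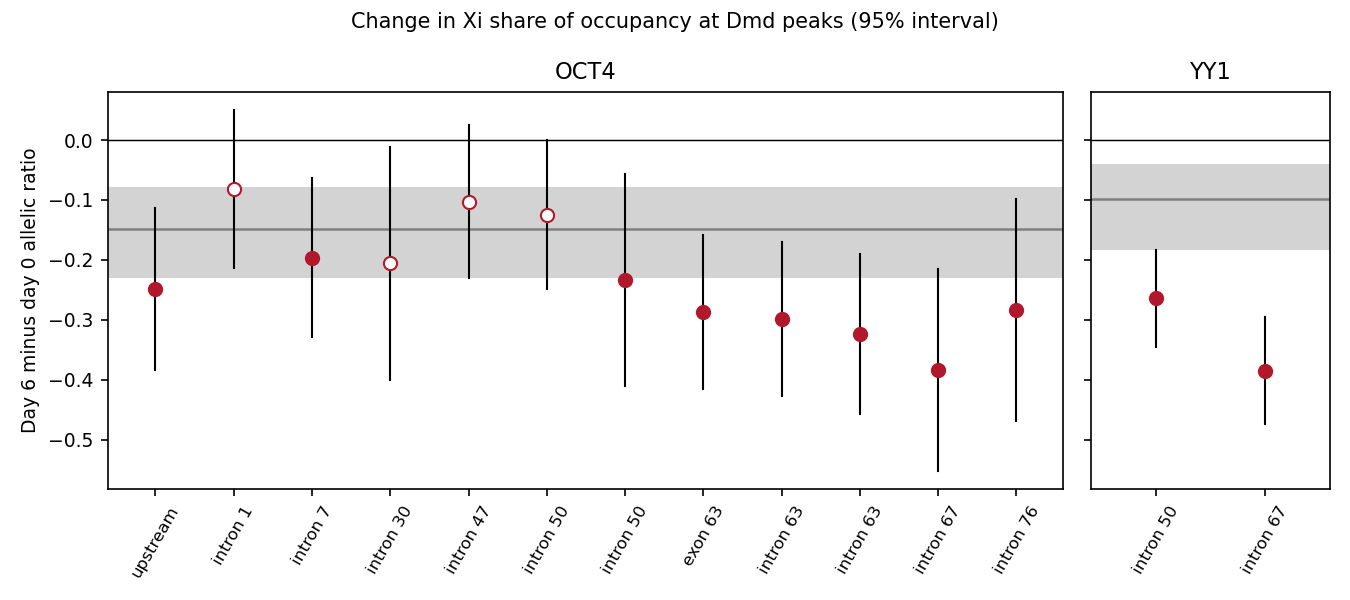
Day 6 minus day 0 allelic ratio of each Dmd peak, in order along the gene, with its 95% interval from limma; filled points passed an adjusted p of 0.05, open points did not, and the grey line and band are the median and quartiles of all peaks of that factor. The 5 OCT4 points from exon 63 onwards and both YY1 points lie below the grey band, as do the OCT4 point ahead of the curated start and the narrower one of intron 50.

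The median change of the 12 Dmd OCT4 peaks was -0.241 (quartiles -0.290 and -0.178), against -0.149 over all 1006 OCT4 peaks. The median of the per-peak changes at Dmd was -0.291 from replicates 1 alone and -0.246 from replicates 2 alone, and over the whole table it was -0.147 and -0.159. The median ratio of the 12 went from 0.489 and 0.521 to 0.249 and 0.318. The median change was -0.166 for the 31 OCT4 peaks in the 2 Mb on either side, and -0.235 for the 18 in the other X-linked genes longer than 500 kb. These medians are set side by side, and no difference between them was tested.

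Of the 10 other X-linked genes of that length, 6 had OCT4 peaks with a ratio. The median change was -0.271 at Il1rapl1 (2 peaks), -0.218 at Il1rapl2 (5 peaks), -0.119 at Frmpd4 (4 peaks), -0.255 at Fgf13 (4 peaks), -0.247 at Aff2 (2 peaks) and -0.255 at Arhgap6 (1 peak). Dmd thus lay within the range of these genes. Among the 79 X-linked genes with at least 3 OCT4 peaks with a ratio, Dmd had the 11th largest mean decrease (mean change -0.231). Among the genes with the most similar mean ratios over the 4 OCT4 libraries, by Euclidean distance, were Magix and Plp2, which share the same 3 peaks (distance 0.0308), Tbl1x (6 peaks, 0.0380) and Zdhhc15 (3 peaks, 0.0407).

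The Xi share of YY1 fell at both of its Dmd peaks. In intron 50 the YY1 ratios started at 0.440 and 0.455 and ended at 0.201 and 0.166. The replicates differed by at most 0.0354, and the ratio fell by 0.264 ± 0.0329 (limma adjusted p = 0.00833). In intron 67 they started at 0.488 and 0.534 and ended at 0.148 and 0.104. The ratio fell by 0.385 ± 0.0361 (limma adjusted p = 0.00543), the third largest decrease of the 211 YY1 peaks.

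The intron 67 peak kept 24.7% of its day 0 ratio, the lowest share of any YY1 peak in the table, and the intron 50 peak kept 41.0%, the 9th lowest. Both were called lower, as were 42.2% of all YY1 peaks, and both had day 6 ratios under both day 0 ratios, as had 72%. Their median change was -0.325, against -0.0987 over all YY1 peaks, -0.146 for the 2 YY1 peaks in the flanking 2 Mb and -0.0774 for the 2 in other long genes. Without day 0 replicate 2 the adjusted p-values of both YY1 peaks passed 0.05 and neither was called, although both kept an unadjusted p under 0.05, and 0 of all 211 YY1 peaks were then called by limma.

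Per the methods, each chromatin extract was split between the antibodies, a pairing that the limma fit described next left out. Both YY1 peaks at Dmd overlapped an OCT4 peak, so the changes of the factors could be set against each other there. Over the X chromosome 69 such pairs overlapped by at least 1 bp, with a median change of -0.0793 for OCT4 and -0.116 for YY1. In a limma fit of the factor by day interaction, 0 of the 69 pairs (0%) passed an adjusted p of 0.05 and 6 had an unadjusted p under 0.05.

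In intron 50 the OCT4 change was less negative than the YY1 change by 0.140 ± 0.0588 (95% interval 0.00431 to 0.275, limma adjusted p = 0.470), and the pair was one of the 6. The OCT4 peak there is 2181 bp wide and the YY1 peak 587 bp, so the 2 ratios were not read over the same stretch. In intron 67 the changes differed by 0.000900 ± 0.0891 (95% interval -0.204 to 0.206, limma adjusted p = 0.992). This interval is wide enough to hold a difference of the size seen in intron 50 in either direction. The order of the day 6 ratios also differed between the sites, with both OCT4 libraries above both YY1 libraries in intron 50 and the YY1 libraries within the OCT4 range in intron 67.

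**Figure D4:**
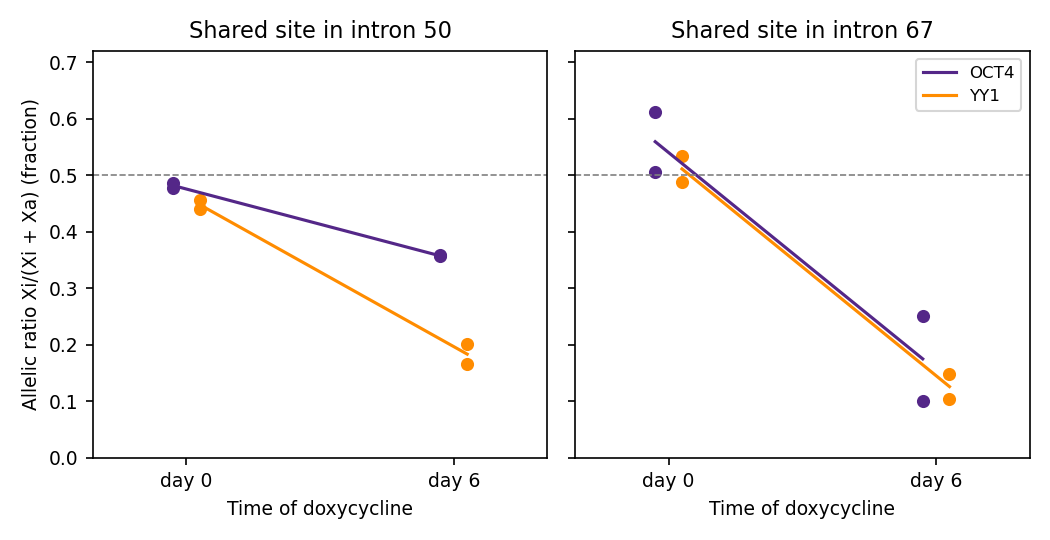
Allelic ratios of OCT4 (purple) and YY1 (orange) at the 2 places in Dmd where their peaks overlap; points are single libraries and lines join the means of 2 at day 0 and day 6. In intron 50 the day 6 OCT4 points (0.356 and 0.358) lie above the YY1 points (0.201 and 0.166), and in intron 67 the YY1 points (0.148 and 0.104) lie between the OCT4 points (0.100 and 0.250).

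The rows just outside the window differed from one another. An OCT4 peak 5.097 kb before the gene (chrX:82809126-82809567), the nearest row left out, went from 0.576 and 0.603 to 0.400 in both day 6 libraries. The next one out, 66.8 kb away (chrX:82747638-82747887), was biased towards Xi throughout, going from 0.714 and 0.814 to 0.667 and 0.636. On the 3′ side no row lay within 361 kb of the gene. There, an OCT4 peak near Tab3 (chrX:85566203-85566670) went from 0.484 and 0.571 to 0.310 and 0.217, while the OCT4 peak at the Tab3 start (chrX:85573499-85574500) went from 0.388 and 0.492 to 0.353 and 0.476, so that its days overlapped. Tab3 encodes a binding partner of the TAK1 kinase.

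YY1 rows outside the gene were further away. On the 5′ side the nearest (chrX:82238589-82238932) went from 0.560 and 0.513 to 0.402 and 0.363, and the next (chrX:80754739-80755330) had 0.397 and 0.339 and then 0.352 and 0.280. On the 3′ side the YY1 peak at the Tab3 start (chrX:85573611-85574086) had 0.495 and 0.554 and then 0.405 and 0.370, and the one at Dcaf8l (chrX:89409154-89409465) had 0.468 and 0.444 and then 0.357 and 0.400. All 4 had higher day 6 ratios in both libraries than either YY1 peak inside Dmd.

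The list of consensus OCT4 peaks, which was pooled over libraries and holds positions only, had 24 peaks at Dmd, of which 12 (50%) had an allelic ratio. Over the X chromosome 47.0% of 2139 consensus peaks had one. Dmd held 10.0 consensus peaks per Mb against 12.5 for the whole X chromosome, and 0 of the 71 X-linked regions called in input lay in it. Among the 10 other long genes the density ran from 0 to 13.8 per Mb (median 5.98), with Diaph2 and Fgf13 denser than Dmd. The longest stretches of Dmd without a consensus OCT4 peak were 502 kb, ending at the Dp71 start, and 474 kb between introns 1 and 7.

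One of the 12 peaks without a ratio lay 19 bp from the Dp71 start and overlapped the first exon of the short transcripts (chrX:85048314-85048618, 63.0% GC). It was the only consensus OCT4 peak at an annotated Dmd start, so no Xi share can be given for OCT4 at a Dmd promoter. Another 3 (chrX:82934722-82935159, chrX:84159355-84160434 and chrX:84545412-84545847) were entirely soft-masked sequence, with a GC content of 65.3% to 66.5%, above every Dmd peak with a ratio. Whether these peaks lacked strain-specific positions, fragments or a biallelic ratio was not tested.

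The other genes of the dystrophin complex and its relatives are nearly all autosomal, where the tables hold no ratios, so only the presence of consensus OCT4 peaks can be given for them. Of 21 such genes, 19 had at least one consensus peak in or within 5 kb, with a median of 3. Of 21631 protein-coding genes on the autosomes and the X chromosome, 69.4% had one (median 1 peak), but the listed genes were longer, with a median length of 78.5 kb against 17.3 kb, so nothing is read from the higher share. Dmd had more than any of them, and Utrn, which encodes the dystrophin homologue utrophin, came next with 18 peaks. Per Mb, Utrn had 36.2 peaks and Dmd 10.0, against a median of 32.4 for the 21. Dag1, which encodes dystroglycan, had 3 peaks and Lama2, which encodes a chain of the laminin it binds, had 2. Among the sarcoglycan genes Sgce had 7 and Sgcz 3. Drp2, an X-linked dystrophin relative, and Sntg2, a syntrophin gene, had 0.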

How the data were processed

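The authors deposited each peak's allelic ratio as a fraction, computed from fragments assigned to Xi and Xa. Per the study's methods and the submitters' processing notes, reads were aligned with Bowtie2 2.3.5.1 to N-masked mm10, deduplicated with Picard and assigned to alleles with SNPsplit. MACS2 peaks were merged into a consensus without input regions and counted with featureCounts. The authors then dropped peaks with few allele-assigned fragments or a skewed ratio in uninduced cells. A ratio is blind to loss shared by both alleles, and few fragments behind a ratio make it coarse. The lists of OCT4 and input peaks give only positions.

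Libraries were grouped from their labels. The YY1 day 0 labels name no antibody, so titles gave the factor, and OCT4 columns, which carry a clone name absent from the labels, were matched by factor, day and replicate.

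The gene, the gene lists and the naming rule (every row in or within 5 kb of Dmd, and the 2 nearest rows on each side) were chosen with earlier results of these data known. For each factor, limma 3.58.1 in R 4.3.3 compared day 6 with day 0 over the whole table, two-sided, without a block, with Benjamini-Hochberg adjustment and a threshold of 0.05. The script was tested on simulated data. One gene among those most like Dmd is not reported here. Overlapping OCT4 and YY1 peaks were compared by a factor by day interaction. Positions, exons and sequence came from RefSeq GRCm38.p6, counted from 1. Python 3.11.15, pandas 2.3.3, numpy 2.4.6 and matplotlib 3.10.9 were used. The alternatives tried were leaving out each library in turn, blocking on replicate number, testing logit(ratio) or log2(ratio + 0.01), restricting the table to mean day 0 ratios of 0.3 to 0.7, a trended robust prior, an adjusted p of 0.01, windows of 0 and 50 kb, another overlap and motif window, and the share kept.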

Additional observations from a re-analysis of the deposited data

How the results depend on the processing

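With 2 libraries a day and no fragment numbers, the calls at Dmd were easily lost while the directions were not: no single peak changed sign under any alternative. The count of 8 OCT4 peaks called lower became 5 on the logit scale, 3 on the log2 scale and 0 at an adjusted p of 0.01. Over all 1006 OCT4 peaks the count went from 352 to 264 on the logit scale and 167 on the log2 scale. Whichever day 0 library was dropped (replicate 1 or 2), no OCT4 call remained at Dmd and almost none over the whole table. Without either day 6 library, calls became fewer both at Dmd and over the table. In these fits the lone library of a day is assumed to vary like the other day. The median OCT4 change of -0.241 ran from -0.279 to -0.201 on leaving out 1 library, and as a share of the day 0 ratio the median kept was 57.4%. On leaving out 1 library, the 2 YY1 calls were lost only without day 0 replicate 2, although calls over the whole YY1 table became fewer each time. The median share kept at the 2 YY1 peaks was 32.8%. The difference between the OCT4 and YY1 changes ran from 0.122 to 0.157 in intron 50 and from -0.0741 to 0.0759 in intron 67, where it turned sign without OCT4 day 0 replicate 2, OCT4 day 6 replicate 2, YY1 day 0 replicate 2 or YY1 day 6 replicate 2. Same-numbered libraries did not deviate together, peak by peak, between the days (r = -0.0217 over OCT4 peaks and 0.0315 over YY1 peaks). The numbers were not taken to pair samples, although this check cannot see a shift shared by all peaks of a library. With the replicate block 7 of the 8 OCT4 calls and both YY1 calls passed, and blocking the pairs of factors by extract gave an adjusted p of 0.706 in intron 50. A window of 50 kb took in 1 more OCT4 peak and had 9 called lower.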
